A study of Mus musculus with 8 samples.

Results

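Matrix metalloproteases, ADAM and ADAMTS proteases and their tissue inhibitors (TIMPs) were described in hypothalamic tissue from 4 Bgn_KO males, whose Bgn gene is disrupted, and 4 WT males, all 13 weeks old on a C57BL/6 background. The members are the array probes whose annotated gene symbol is Mmp, Timp, Adam or Adamts followed by a number, leaving out Adamts4, and which 4 or more of the 8 arrays measured above background, taken as a detection p-value below 0.05. They number 38 probes of 30 genes, among 25697 probes on the array, of which 14190 met the same detection rule and were tested. Bgn encodes biglycan, a small proteoglycan of the extracellular matrix. The labels do not give the part of Bgn that was disrupted, and the series' design gives 4 mice per group, 1 array each.

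These enzymes are zinc proteases that cut proteins outside the cell or at its surface. Matrix metalloproteases (MMPs) are made as inactive precursors and cleave matrix proteins, proteoglycans such as biglycan, growth factors and receptors; some are secreted and others are anchored in the membrane. ADAMs are membrane proteins, several of which release the outer part of receptors and adhesion molecules, while others have lost the catalytic residues and act as receptors. ADAMTS enzymes are secreted and many cleave large matrix proteins, and TIMPs bind and block the active sites of these proteases.

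Before the comparison, the arrays were checked. Between 53.8% and 56.4% of all probes were above background on each array, and 33 to 37 of the 38 member probes were. Bgn itself had normalized log2 signals of 8.93, 9.00, 8.97 and 8.78 in Bgn_KO replicates 1 to 4, against 8.85, 10.43, 10.12 and 9.51 on the WT arrays (log2 difference -0.81, SE 0.29, limma adjusted p = 0.389). The array labelled WT replicate 1 thus had a Bgn signal as low as the Bgn_KO arrays, unlike the other WT arrays. That low level is not an absent signal. The Bgn probe was above background on all 4 Bgn_KO arrays, with deposited signals of 544 to 643, where the median of all probes was 180 to 213. Mean signals of meningeal fibroblast markers were 6.94, 8.18, 7.94 and 7.27 on WT replicates 1 to 4, the same order as Bgn. On the Bgn_KO arrays they were 7.56, 6.95, 6.64 and 7.98, not in the order of Bgn. Whether that array is labelled rightly was not tested, nor was the part of these cells in the Bgn signal. Every direction below rests on the label, and some differences are also given without that array. Transcripts of hypothalamic neurons were abundant on all arrays (mean log2 signal of 12 markers 10.75 to 11.12 in Bgn_KO and 10.95 to 11.09 in WT), although the markers Sim1 and Otp were above background on no array. Skeletal muscle markers averaged 12.42 on WT replicate 4 and 5.35 to 5.67 on the other arrays, and cortical neuron markers averaged 7.78 on Bgn_KO replicate 4 and 5.24 to 6.07 on the others. Of 7 listed cortical markers 4 had probes, of which 2 were above background on at least 4 arrays and Neurod6 on none.

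None of the 38 member probes passed the threshold between Bgn_KO and WT: 0 had a limma adjusted p under 0.05, over all 14190 tested probes, against 0.507% of all tested probes. Before adjustment 6 had a p under 0.05 (3 higher and 3 lower in Bgn_KO), where 10.2% of all tested probes did (5.21% higher and 4.95% lower). The means of 20 member probes were higher and of 18 lower in Bgn_KO. Their median log2 difference was 0.012, beside 0.011 over all tested probes, and the median absolute log2 difference was 0.14, beside 0.11. All differences are Bgn_KO minus WT on the log2 scale, and their median standard error (SE) over the member probes was 0.14. The number of arrays limits the precision.

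**Figure D1:**
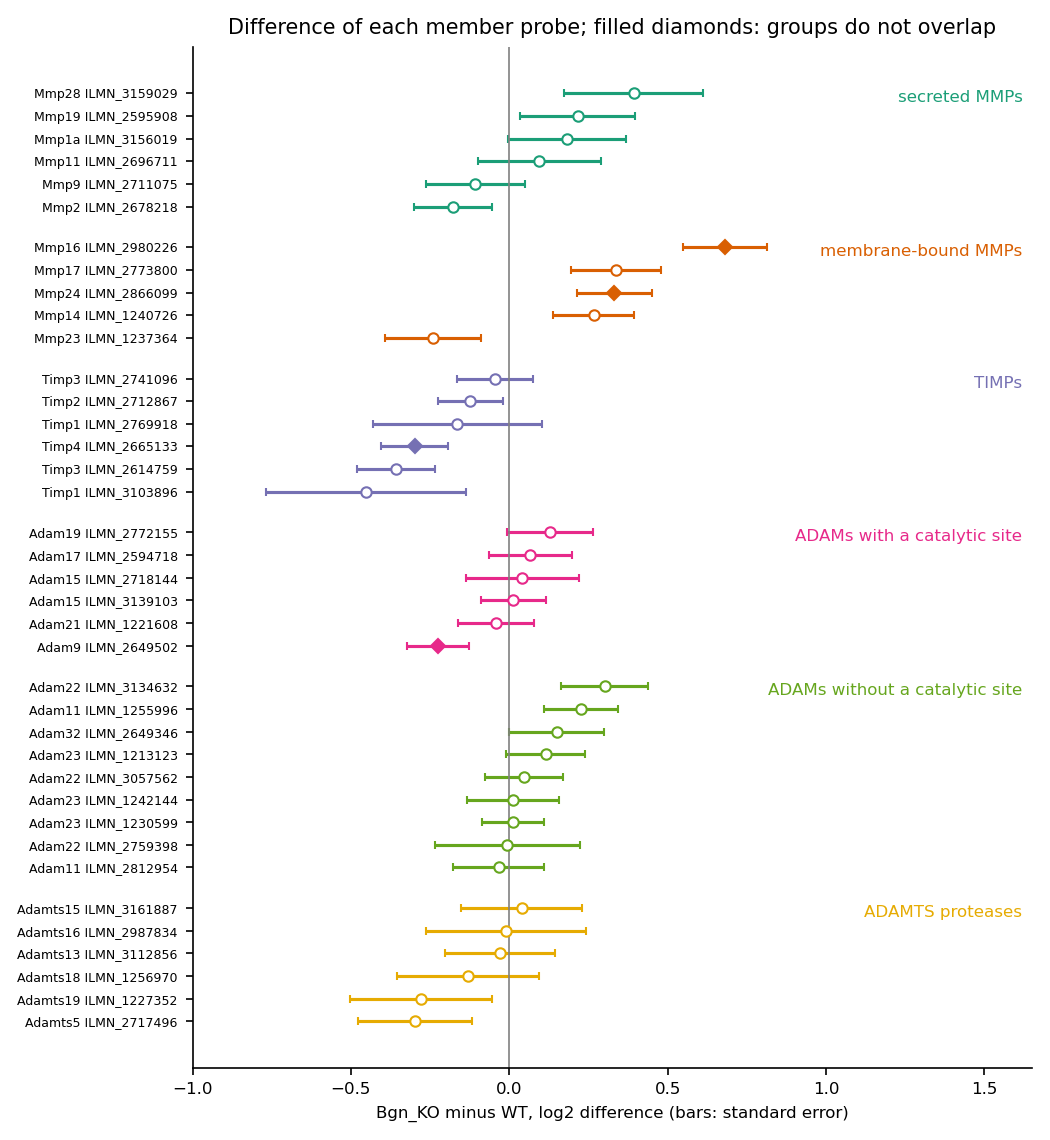
Log2 difference, Bgn_KO minus WT, of each of the 38 member probes (x axis), with bars for the standard error, grouped by family down the page. Filled diamonds mark the 4 probes whose Bgn_KO and WT arrays do not overlap. Of the 5 membrane-bound MMPs, 4 lie right of 0, and all 6 TIMP probes lie left of it.

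For 4 of the 38 member probes the arrays of both groups did not overlap: Mmp16 and Mmp24 were higher, and Timp4 and Adam9 lower, on every Bgn_KO array than on every WT array. Over all tested probes 6.15% did not overlap (3.2% higher and 2.95% lower), and the count of 4 in 38 is read against that background. In tissue homogenate fewer cells of a type and less RNA per cell cannot be told apart.

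The membrane-bound MMPs included the largest difference among the members. Mmp16 encodes an MMP with a transmembrane anchor that can activate the precursor of MMP2. It had normalized log2 signals of 7.21, 7.03, 7.06 and 7.32 in Bgn_KO (7.16 ± 0.14, SD, n = 4), against 6.49, 6.73, 6.15 and 6.53 on the WT arrays (6.48 ± 0.24, SD, n = 4). The lowest Bgn_KO array stood above the highest WT array. The log2 difference was 0.68 (SE 0.13, 1.60-fold, limma adjusted p = 0.0861), which ranked 92 by p among all tested probes and missed the threshold. The exact two-sided permutation p was 0.0286, the smallest that 4 against 4 arrays allow. Any probe whose groups do not overlap has that p, so it only restates the separation.

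The size of the Mmp16 difference depended on background correction, and the probe is dim. Its deposited signal, not scaled between arrays, ranged from 246 to 334 in Bgn_KO and from 234 to 275 in WT, so the groups overlapped there, and the median of all probes was 180 to 225 per array. Without background correction the log2 difference was 0.29 (limma adjusted p = 0.102). The values as the authors processed them gave 0.28 (limma adjusted p = 0.111). With array weights it was 0.73 and passed (limma adjusted p = 0.0492), the only member probe to pass under any of 18 alternatives, over which its adjusted p reached from 0.0492 to 0.285. Without the array labelled WT replicate 1 it was 0.68 (limma adjusted p = 0.129). A second annotated Mmp16 probe was above background on 0 of the 8 arrays.

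Mmp24 encodes a membrane-anchored MMP found mainly in the nervous system, where it can cleave N-cadherin. It had log2 signals of 9.02, 9.19, 9.00 and 8.92 on the Bgn_KO arrays, against 8.72, 8.79, 8.41 and 8.88 on the WT arrays. The groups did not overlap, but the lowest Bgn_KO array and WT replicate 4 lay close together. Mmp24 differed by 0.33 (SE 0.12, limma adjusted p = 0.381), and 0.34 without the array labelled WT replicate 1 (limma adjusted p = 0.377).

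Mmp17, whose product is held in the membrane by a lipid anchor, had log2 signals of 10.48, 10.28, 10.44 and 10.84 on the Bgn_KO arrays, against 9.92, 10.28, 10.35 and 10.15 on the WT arrays. Its groups overlapped, and Bgn_KO replicate 4, the array with the highest mean of the few cortical markers, was the highest. The array labelled WT replicate 1 was the lowest. Mmp17 differed by 0.34 (SE 0.14, limma adjusted p = 0.471), and without both replicates 4 it was 0.22. Leaving out 1 array gave log2 differences from 0.22 to 0.41. The part of cortical tissue in the Mmp17 signal was not tested.

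Mmp14, the best studied membrane MMP, activates the MMP2 precursor in a complex with TIMP2. Its log2 signals were 9.50, 9.18, 9.20 and 8.96 on the Bgn_KO arrays, against 8.81, 9.14, 8.87 and 8.94 on the WT arrays. Only WT replicate 2 reached into the range of the Bgn_KO arrays. The log2 difference was 0.27 (SE 0.13, limma adjusted p = 0.527).

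Mmp23, a small family member that furin-like enzymes release from the membrane, went the other way in its means, with 6.64, 6.34, 6.14 and 6.15 on the Bgn_KO arrays, against 6.64, 6.52, 6.82 and 6.26 on the WT arrays (log2 difference -0.24, SE 0.15, limma adjusted p = 0.631). Its groups overlapped widely. Over the 5 membrane-bound MMPs 4 means were higher and 1 lower, with 0 past the threshold and a median log2 difference of 0.33, beside 0.011 over all tested probes. Without the array labelled WT replicate 1 that median was 0.25, and the split of 4 higher and 1 lower was the same under all 17 alternatives computed by family. Among these, the stricter detection rule, the variance model and the replicate block leave each probe's difference as it was, so they could not change the split.

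**Figure D2:**
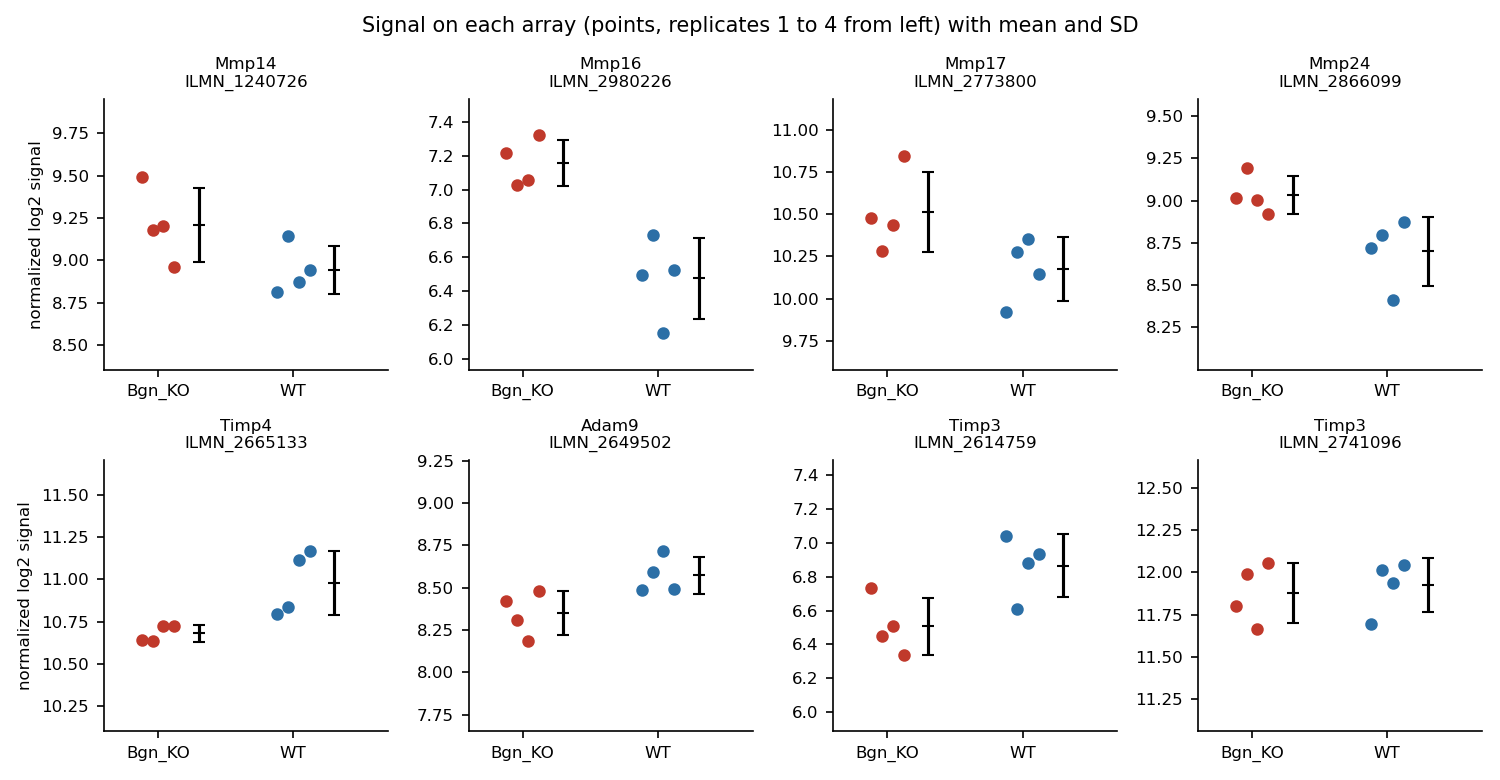
Normalized log2 signal (y axis, the same span of 1.6 units in every panel) of 8 member probes on each Bgn_KO array (left) and each WT array (right), with the mean and SD of each group beside the points. Mmp16, Mmp24, Timp4 and Adam9 show groups that do not overlap, and the dim Timp3 probe shows lower Bgn_KO values that the bright one does not.

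TIMPs had lower means in Bgn_KO for all 6 probes of the 4 genes, with 0 past the threshold. Of all 14190 tested probes 6699 were lower, with a median log2 difference of 0.011. The median of the TIMP probes was -0.23. That median stayed between -0.30 and -0.13 under the alternatives, of which the variance model and the replicate block cannot change it. In most of them 6 of 6 probes were lower. The exceptions were 4 of 4 probes left by the stricter detection rule, and 5 of 6 without Bgn_KO replicate 3 and without WT replicate 2. Without the array labelled WT replicate 1 the median was -0.26.

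Timp4, an inhibitor with a restricted distribution that includes brain, had log2 signals of 10.64, 10.64, 10.73 and 10.72 on the Bgn_KO arrays (10.68 ± 0.05, SD, n = 4), against 10.80, 10.84, 11.12 and 11.17 on the WT arrays (10.98 ± 0.19, SD, n = 4). The Bgn_KO arrays lay within a narrow range below all WT arrays, and WT replicates 3 and 4 were the highest. WT replicate 4 is the array with skeletal muscle transcripts, and without it the log2 difference was -0.23 (limma adjusted p = 0.649). The part of muscle in the Timp4 signal was not tested. With all arrays Timp4 differed by -0.30 (SE 0.11, limma adjusted p = 0.381, exact permutation p = 0.0286), and -0.36 without the array labelled WT replicate 1 (limma adjusted p = 0.231). The permutation p again only restates that the groups do not overlap.

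Timp3 binds to the matrix and blocks ADAM17 as well as MMPs. Its probe ILMN_2614759 had log2 signals of 6.73, 6.45, 6.51 and 6.33 on the Bgn_KO arrays, against 7.04, 6.61, 6.88 and 6.93 on the WT arrays (log2 difference -0.36, SE 0.12, limma adjusted p = 0.359). Only WT replicate 2 lay within the Bgn_KO range. The second probe, ILMN_2741096, had 11.80, 11.99, 11.67 and 12.06 on the Bgn_KO arrays, against 11.69, 12.01, 11.94 and 12.05 on the WT arrays (log2 difference -0.04, SE 0.12, limma adjusted p = 0.938). The groups of that probe covered nearly the same range. The difference between both probes of Timp3 on each array averaged 5.37 ± 0.31 in Bgn_KO and 5.06 ± 0.31 in WT (SD, n = 4 each), and the exact permutation test of their difference missed the threshold (p = 0.171, adjusted p = 0.524 over 10 probe pairs).

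Timp2, the broadly expressed partner of MMP14, had log2 signals of 13.36, 13.39, 13.35 and 13.30 on the Bgn_KO arrays, against 13.74, 13.36, 13.43 and 13.36 on the WT arrays. WT replicate 1 alone was high, and without it the log2 difference was -0.03, against -0.12 with all arrays (SE 0.10, limma adjusted p = 0.732). Timp1, an inhibitor that injured tissue makes, gave log2 differences of -0.45 (SE 0.32) and -0.16 (SE 0.27) with its probes ILMN_3103896 and ILMN_2769918, with limma adjusted p of 0.671 and 0.882. The probe ILMN_3103896 spread widely within each group, from 4.97 to 6.23 on the Bgn_KO arrays and from 5.40 to 6.55 on the WT arrays. Both Timp1 probes are dim: ILMN_3103896 was above background on 3 Bgn_KO and 4 WT arrays, and ILMN_2769918 on 3 of each group.

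Promoter windows of RefSeq on GRCm38.p6, from 250 bases before to 50 after a start site, were given for 18 of the 30 member genes, 21 windows in all. Those of Mmp24 and Timp4 are shown because their arrays separated in opposite directions, and that of Timp3 because its probes gave unlike differences. Windows for Mmp16 and Adam9 were not used here. Capitals mark the GC box GGGCGG on either strand, the letters bound by factors of the Sp family. The windows are Mmp24 at chr2:155775092-155775391 on the plus strand, Timp4 at chr6:115252156-115252455 on the minus strand and Timp3 at chr10:86300162-86300461 on the plus strand.
Mmp24: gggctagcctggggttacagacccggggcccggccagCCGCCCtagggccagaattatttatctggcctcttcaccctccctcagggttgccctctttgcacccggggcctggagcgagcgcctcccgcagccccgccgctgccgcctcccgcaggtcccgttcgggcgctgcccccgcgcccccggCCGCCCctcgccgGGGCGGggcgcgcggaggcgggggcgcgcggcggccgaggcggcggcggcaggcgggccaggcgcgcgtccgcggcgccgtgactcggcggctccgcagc
Timp4: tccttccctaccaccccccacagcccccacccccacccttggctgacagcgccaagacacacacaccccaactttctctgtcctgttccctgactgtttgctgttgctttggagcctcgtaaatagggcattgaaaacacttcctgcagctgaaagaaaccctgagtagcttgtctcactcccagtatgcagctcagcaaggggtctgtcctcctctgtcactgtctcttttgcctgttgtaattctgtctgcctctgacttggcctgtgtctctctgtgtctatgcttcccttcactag
Timp3: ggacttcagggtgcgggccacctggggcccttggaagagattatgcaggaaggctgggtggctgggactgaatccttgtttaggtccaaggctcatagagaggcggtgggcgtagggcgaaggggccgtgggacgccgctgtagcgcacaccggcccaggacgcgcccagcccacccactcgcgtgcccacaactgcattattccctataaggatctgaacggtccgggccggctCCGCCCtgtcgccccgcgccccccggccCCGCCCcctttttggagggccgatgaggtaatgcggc

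The Mmp24 window held 3 matches to the GC box and was 80.0% G and C, the Timp3 window held 2 matches at 67.0% G and C, and the Timp4 window held 0 at 53.3%. Among the 21 member windows 13 (61.9%) held a GC box, against 35.7% of all 32851 windows. The AP-1 letters TGANTCA, searched on both strands because AP-1 drives several inducible MMP genes, were in 2 of the 21 (9.5%), those of Mmp1a and Adam19, against 7.8% of all windows. The TATA letters TATAAA were in 1 window, that of Mmp1a (4.8% against 13.6%). None of the 3 windows shown held either of these. Such matches describe letters and show no binding.

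Secreted MMPs gave 4 higher and 2 lower means among 6 probes of 6 genes, with 0 past the threshold and 0 whose groups did not overlap. Their median log2 difference was 0.14, but it turned to -0.11 under the stricter detection rule, which left 3 probes, 1 higher and 2 lower. Mmp28, a secreted MMP also called epilysin, had log2 signals of 5.99, 5.93, 5.01 and 5.83 on the Bgn_KO arrays, against 5.18, 5.08, 5.31 and 5.63 on the WT arrays. Bgn_KO replicate 3 was the lowest of all 8 arrays. The log2 difference was 0.39 (SE 0.22, limma adjusted p = 0.587), and the probe was above background on 3 Bgn_KO and 2 WT arrays. A second annotated Mmp28 probe was above background on 0 arrays.

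Mmp2, a gelatinase that the membrane MMPs activate, had log2 signals of 7.50, 7.24, 7.26 and 7.09 on the Bgn_KO arrays, against 7.34, 7.65, 7.56 and 7.25 on the WT arrays (log2 difference -0.18, SE 0.12, limma adjusted p = 0.667). The ranges overlapped. The other gelatinase, Mmp9, ranged from 6.37 to 6.61 in Bgn_KO and from 6.31 to 7.07 in WT (log2 difference -0.11). Mmp1a, a mouse counterpart of interstitial collagenase, Mmp11, which furin activates inside the cell, and Mmp19 had log2 differences of 0.18, 0.09 and 0.22, none past the threshold, with limma adjusted p from 0.732 to 0.911. Without the array labelled WT replicate 1, Mmp1a differed by 0.015 and Mmp11 by 0.18, and without WT replicate 4 Mmp19 differed by 0.095. Mmp19 was above background on 4 Bgn_KO and 2 WT arrays, so it met the detection rule mostly through Bgn_KO, and its difference is not read as a change. A second annotated Mmp1a probe was above background on 0 arrays.

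ADAMs with a catalytic site gave 4 higher and 2 lower means among 6 probes of 5 genes, and 0 passed the threshold; without the array labelled WT replicate 1 the means were 3 higher and 3 lower. Their median log2 difference of 0.03 turned to -0.023 with median scaling and to -0.037 without Bgn_KO replicate 1. Adam9, a protease that sheds membrane proteins, had log2 signals of 8.42, 8.31, 8.19 and 8.48 on the Bgn_KO arrays, against 8.49, 8.59, 8.72 and 8.49 on the WT arrays. The groups did not overlap, but the highest Bgn_KO array and the lowest WT arrays nearly met. Adam9 differed by -0.22 (SE 0.10, limma adjusted p = 0.489), and -0.25 without the array labelled WT replicate 1.

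Adam17, the sheddase that releases tumour necrosis factor, was at 7.86, 7.83, 7.67 and 7.61 on the Bgn_KO arrays, against 7.85, 7.91, 7.41 and 7.53 on the WT arrays (log2 difference 0.07, SE 0.13, limma adjusted p = 0.907). Both groups covered much the same range. The brighter probe of Adam15, which also binds integrins, had log2 signals of 10.44, 10.32, 10.19 and 10.28 in Bgn_KO, against 10.08, 10.31, 10.41 and 10.38 in WT (log2 difference 0.01, SE 0.10). Its dim probe ILMN_2718144 had 5.78, 5.39, 5.34 and 5.61 in Bgn_KO, against 5.42, 5.83, 5.03 and 5.66 in WT (log2 difference 0.04, SE 0.18). Neither probe separated the groups. Adam19, which processes neuregulins, and Adam21 differed by 0.13 and -0.04, and by 0.021 and -0.0083 without the array labelled WT replicate 1. In the same setting Adam17 differed by 0.12. Adam10, the main sheddase of the amyloid precursor protein and of Notch, had 1 annotated probe, above background on 0 arrays, and is not described further.

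ADAMs without a catalytic site are neuronal receptors in the case of Adam11, Adam22 and Adam23, and Adam32 is known mainly from testis. Of their 9 probes 7 had higher and 2 lower means in Bgn_KO, with 0 past the threshold. Adam22 encodes the synaptic receptor for the secreted protein LGI1. Its probe ILMN_3134632 had log2 signals of 6.90, 6.71, 6.41 and 7.03 on the Bgn_KO arrays, against 6.40, 6.35, 6.51 and 6.58 on the WT arrays (log2 difference 0.30, SE 0.14, limma adjusted p = 0.507). Bgn_KO replicate 3 alone lay among the WT arrays. The probe ILMN_3057562 had 6.39, 6.49, 6.17 and 6.62 in Bgn_KO, against 6.61, 6.32, 6.31 and 6.25 in WT (log2 difference 0.05, SE 0.12). The probe ILMN_2759398 had 5.59, 5.95, 5.49 and 6.62 in Bgn_KO, against 5.94, 5.92, 5.70 and 6.11 in WT (log2 difference -0.006, SE 0.23). Both overlapped throughout, with Bgn_KO replicate 4 the highest array in each.

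Adam11 showed a similar split: ILMN_1255996 had 8.46, 8.36, 8.55 and 8.60 on the Bgn_KO arrays, against 7.98, 8.47, 8.30 and 8.32 on the WT arrays (log2 difference 0.23, SE 0.12, limma adjusted p = 0.562). WT replicate 2 overlapped the Bgn_KO arrays, and without the array labelled WT replicate 1 the log2 difference was 0.13. Its second member probe, ILMN_2812954, had 6.03, 5.62, 5.40 and 5.88 in Bgn_KO, against 5.68, 5.63, 5.82 and 5.94 in WT (log2 difference -0.03, SE 0.14), with groups that overlapped. Adam23, which also binds LGI1, had log2 signals of 12.71, 12.87, 12.53 and 12.79 on the Bgn_KO arrays, against 12.70, 12.63, 12.70 and 12.83 on the WT arrays with its brightest probe (log2 difference 0.01, SE 0.10, limma adjusted p = 0.979). The probe ILMN_1213123 of Adam23 had 8.25, 8.23, 7.74 and 8.22 in Bgn_KO, against 7.95, 8.02, 7.96 and 8.04 in WT (log2 difference 0.11, SE 0.12), and 3 Bgn_KO arrays lay above the WT arrays while Bgn_KO replicate 3 lay below them. The probe ILMN_1242144 had 6.81, 7.14, 6.67 and 6.96 in Bgn_KO, against 6.94, 7.08, 6.54 and 6.97 in WT (log2 difference 0.01, SE 0.14), with overlapping groups. Without Bgn_KO replicate 3, all 9 probes of these ADAMs had higher means in Bgn_KO and their median log2 difference was 0.13, against 0.05 with all arrays. Without Bgn_KO replicate 4, the array with the highest mean of the few cortical markers, 4 were higher and 5 lower and the median was -0.0097. Of the 17 alternatives computed by family, only leaving out Bgn_KO replicate 4 turned the direction of these ADAMs as a group. Without both replicates 4 the means were 6 higher and 3 lower, with a median log2 difference of 0.030. The part of cortical tissue in these values was not tested. Adam32 differed by 0.15 (SE 0.15, limma adjusted p = 0.789).

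**Figure D3:**
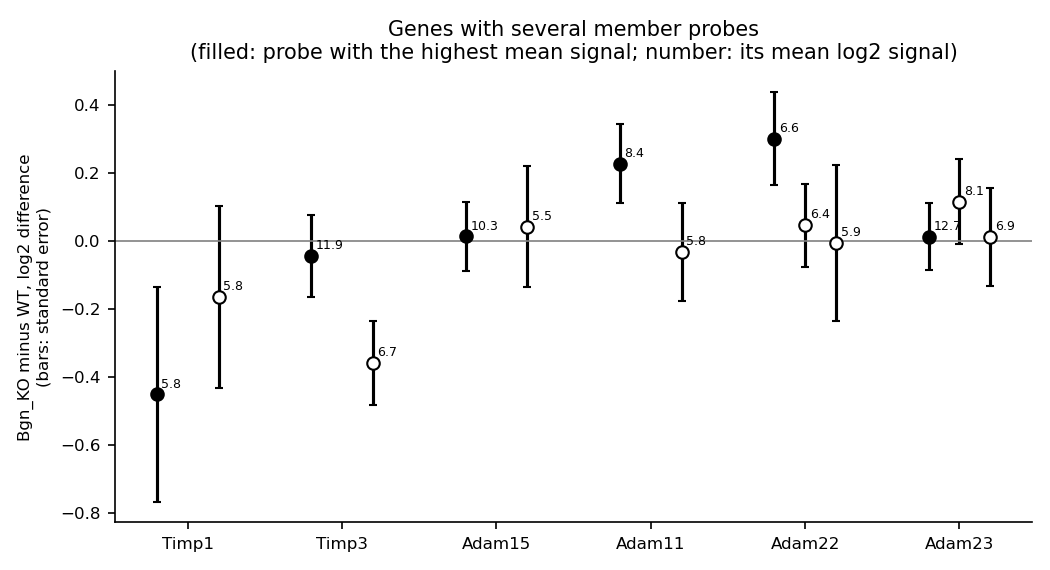
Log2 difference, Bgn_KO minus WT, with its standard error (y axis) for the 6 genes with several member probes. The number beside each point is that probe's mean log2 signal over all arrays, and filled points mark the brightest probe. For Timp3 the dim probe lies lower, at -0.36, and for Adam11 and Adam22 the brightest probe lies highest, at 0.23 and 0.30.

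For the 6 genes with several member probes, 10 pairs of probes were compared within arrays. No pair passed by the exact permutation test: the adjusted p was 0.524 or more and the smallest unadjusted p was 0.114, between ILMN_3134632 and ILMN_3057562 of Adam22, whose log2 differences were 0.30 and 0.05. A p that misses the threshold does not show that the probes of a gene behave alike.

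ADAMTS proteases were dim, with deposited signals from 160 to 267, and gave 1 higher and 5 lower means among 6 probes of 6 genes, with 0 past the threshold. The lower means include Adamts5 and Adamts19, which met the detection rule mostly through WT, so the split is not read as a change. It varied from 0 to 3 higher probes under the alternatives. Without WT replicate 3 the means were 3 higher and 3 lower, and the stricter detection rule left 1 probe, which was higher. Adamts5, an enzyme that cleaves aggrecan, had log2 signals of 5.13, 5.29, 4.91 and 5.61 on the Bgn_KO arrays, against 5.77, 5.65, 5.61 and 5.11 on the WT arrays (log2 difference -0.30, SE 0.18, limma adjusted p = 0.614). It was above background on 1 Bgn_KO array and 3 WT arrays, so its level in Bgn_KO is close to the detection limit. Adamts19 was above background on 1 Bgn_KO array and all 4 WT arrays, with a log2 difference of -0.28 (SE 0.22, limma adjusted p = 0.721). A probe that reaches the detection rule mostly through 1 group had to differ in detection, and neither count is read as a change.

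Adamts15, which cleaves versican, had log2 signals of 6.50, 6.24, 5.80 and 6.48 on the Bgn_KO arrays, against 5.81, 6.38, 6.48 and 6.19 on the WT arrays (log2 difference 0.04, SE 0.19). Its groups overlapped fully. Adamts13, the protease of von Willebrand factor, Adamts16 and Adamts18 differed by -0.03, -0.01 and -0.13, with limma adjusted p from 0.891 to 0.993.

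Members not above background on enough arrays make up most of the annotated set. Of 100 probes of 66 genes that carry such a symbol, 62 did not meet the detection rule, and 56 of these were above background on 0 arrays. Among the 36 genes without any member probe were the stromelysins Mmp3 and Mmp10, the macrophage elastase Mmp12, the collagenases Mmp8 and Mmp13, and Adamts1, each above background on 0 arrays, as well as ADAMs known from testis such as Adam2 and Adam3. Adam33 was above background on 0 Bgn_KO and 2 WT arrays. Not being above background gives only an upper bound on these transcripts.

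Across arrays the median deviation of the members from each probe's own mean was 0.11, 0.03, -0.15 and 0.06 on the Bgn_KO arrays, against -0.04, -0.02, 0.03 and -0.03 on the WT arrays. Bgn_KO replicate 3 was the lowest array for 12 of the 38 members and the highest for 0 of them. Without it, Timp3 ILMN_2741096 differed by 0.03 and the member median was 0.077.

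Markers of other cell types were set beside these values. No marker passed the threshold by limma, and among the lists given here the mean signals of oligodendrocyte markers alone did not overlap between the groups. The mean log2 signal of oligodendrocyte markers was 11.82 to 12.03 on the Bgn_KO arrays, below the 12.06 to 12.45 on the WT arrays, with 9 of 9 measured markers above background on at least 4 arrays and 1 higher and 8 lower in Bgn_KO. Microglial markers ranged from 7.75 to 8.14 in Bgn_KO and from 8.09 to 8.21 in WT, with 8 of 8 measured, 1 higher and 7 lower. Meningeal fibroblast markers, cells that express many matrix genes, ranged from 6.64 to 7.98 in Bgn_KO and from 6.94 to 8.18 in WT, with 6 of 9 measured on at least 4 arrays and Col3a1 above background on none. Astrocyte markers ranged from 10.47 to 10.57 in Bgn_KO and from 10.54 to 10.60 in WT, with 7 of 7 measured. Endothelial markers ranged from 6.47 to 6.70 in Bgn_KO and from 6.42 to 6.59 in WT, choroid plexus markers from 6.69 to 7.25 in Bgn_KO and from 7.11 to 7.48 in WT, and pituitary markers from 5.39 to 6.60 in Bgn_KO and from 5.34 to 6.62 in WT. Only 2 of 5 endothelial, 3 of 5 choroid plexus and 3 of 7 pituitary markers were above background on at least 4 arrays. Kdr, Lhb and Fshb were above background on none, so these 3 means say little about those cells. The part of these cell types in the lower values of Timp4, Timp3 and Adam9 was not tested.

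Genes that act with these proteases were taken from 7 lists, of which 63 of 74 genes were on the array and 50 were tested with 61 probes. By limma 0 of the 61 probes passed in either direction, where 0.507% of all tested probes did. An unadjusted p under 0.05 was found for 4, where 10.2% of all tested probes had one. Of the means 29 were higher and 32 lower, and the median log2 difference was -0.013. The groups did not overlap for 2 higher probes (Efna5, and App at 0.08) and 2 lower ones (Cst3 and Ncstn). Over all tested probes 3.2% did not overlap with higher and 2.95% with lower Bgn_KO values. Among activators and clearance receptors 1 of 6 probes was higher and 5 were lower, with Pcsk7, a convertase that activates precursors, at 0.16. Bsg, an inducer of MMPs, was at -0.19 with a probe above background on 2 Bgn_KO and 3 WT arrays. Its other tested probe was at -0.07. Of 4 probes of other inhibitors 1 was higher and 3 were lower, and they included Cst3, an inhibitor of cysteine proteases, at -0.11 (groups not overlapping, limma adjusted p = 0.665) and Serping1, the inhibitor of complement C1, at -0.49 (SE 0.39, limma adjusted p = 0.715).

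Partners that carry ADAMs to the cell surface gave 4 higher and 3 lower probes. Those of the tetraspanin Tspan17 were at -0.28 for a dim probe, and at 0.18 and 0.05 for brighter ones. In the synaptic complex of ADAM22, 5 of 7 probes were higher, with the scaffold Dlg4 at 0.37 (SE 0.16, limma adjusted p = 0.478) and the auxiliary AMPA receptor subunit Cacng2 at 0.41 (SE 0.24, limma adjusted p = 0.599), while Lgi1 itself was at 0.06 and 0.04. Shed substrates gave 14 higher and 10 lower probes, with the ephrin Efna5 at 0.21 (groups not overlapping, limma adjusted p = 0.492) and Nrg1 at 0.28. Other secretases gave 2 higher and 7 lower probes. A probe of Ncstn, a subunit of gamma-secretase, was at -0.29 without overlap (SE 0.10, limma adjusted p = 0.372), while its other probes were at -0.21 and -0.06, and Aph1b, another subunit, was at -0.23. ADAMTS-like proteins, which lack the protease domain, gave 2 higher and 2 lower probes, with Adamtsl2 at -0.68 (SE 0.27, limma adjusted p = 0.436) and Thsd4 at 0.27. Adamtsl2 was above background on 1 Bgn_KO array and 4 WT arrays, so it met the detection rule mostly through WT, and its difference is not read as a change.

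**Figure D4:**
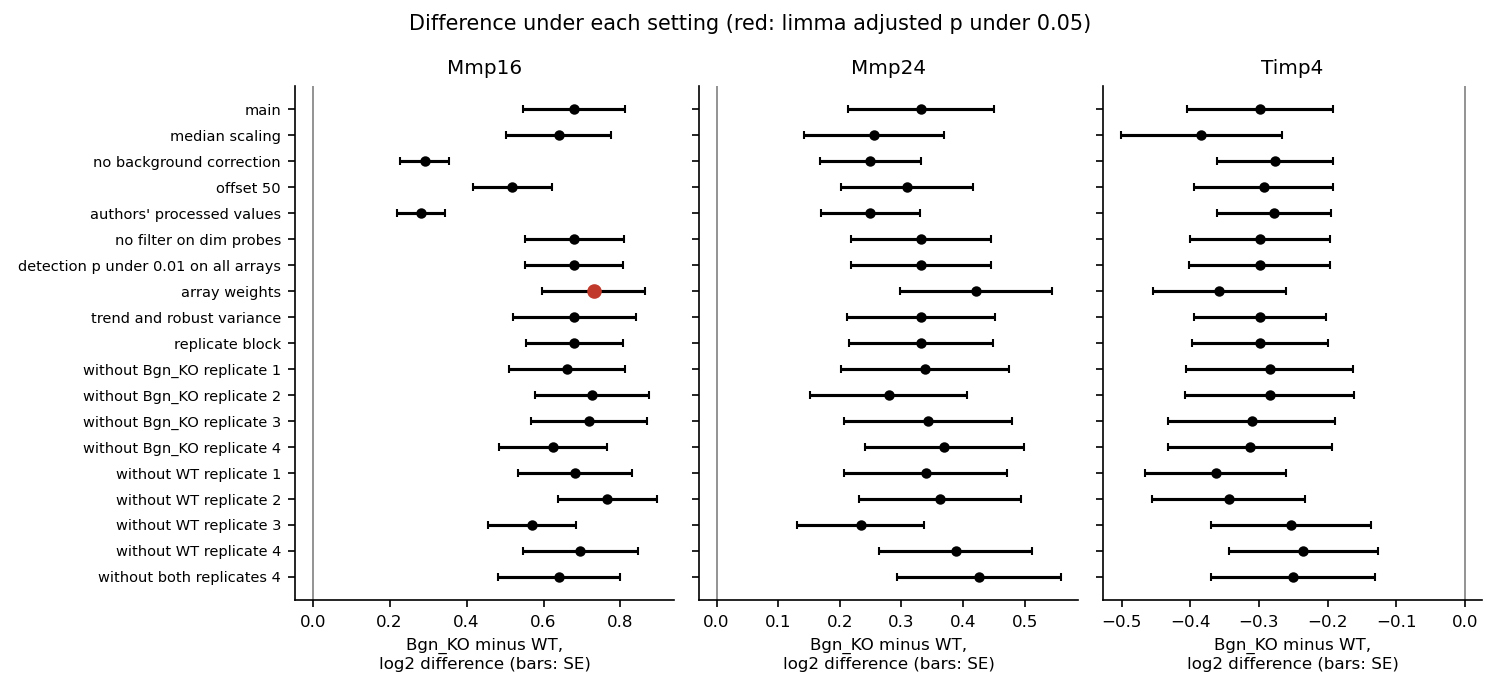
Log2 difference, Bgn_KO minus WT, with its standard error (x axis) of Mmp16, Mmp24 and Timp4 under the main setting and 18 alternatives (y axis). Mmp16 passed 0.05 with array weights alone, at 0.73, and was at 0.29 without background correction and 0.28 in the authors' processed values. Mmp24 and Timp4 kept their direction under all 18, among which the filters, variance model and replicate block cannot change a difference.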

How the data were processed

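RNA from the hypothalamus was hybridised to Illumina bead arrays. The deposited signal intensities are not normalized, per the file headers, and a detection p-value for each probe and array stands beside them in the deposited table. The authors' processed intensities are a second deposited table. The submitters' processing notes name lumi 2.10.0 and R 2.15.0, without the normalization used. No slide, scan date or genome build is given in the files.

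Analyses used R 4.3.3 and limma 3.58.1. Normexp correction, with the background level inferred from detection p-values, used an offset of 16, arrays were quantile normalized, and log2 signals were fitted with group as the only term for all 14190 probes with a detection p under 0.05 on at least 4 arrays. P-values are two-sided, adjusted by Benjamini-Hochberg over all tested probes, with a threshold of 0.05. They measure the spread between labelled animals. Exact permutation tests compared all splits of 8 arrays.

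Gene names come from the platform table, which listed 23978 of 25697 probes. All 38 member probes matched an Entrez ID of the RefSeq annotation. Members, families, marker and companion lists were chosen with earlier results of these data known. Values on every array are given for the 12 member probes with the smallest p, the brightest probe of each family, and the further member probes of those genes. The other members are given by differences or ranges, and in each companion list the 2 probes with the smallest p are named. Further probes of Tspan17, Bsg and Ncstn are given beside them. Mmp9, Timp1, Adam10, Adam17, Adamts19, Lgi1, the genes below background and the genes that hold TIMP genes were singled out after their values were seen. The catalytic ADAMs were grouped from general knowledge, since no protein sequences were used. Alternatives changed the scaling, background correction, offset, source of values, filter, array weights, variance model, pairing and the arrays included.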

Additional observations from a re-analysis of the deposited data

Results flagged for a closer look

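In groups of 4 arrays, a highest or lowest array was marked where its gap to the nearest other array, as a share of the group's range, was over Dixon's critical value. Of 76 groups of member probes 2 were marked, and chance marks about 1 in 20. Both were low values on Bgn_KO replicate 3. The Adam23 probe ILMN_1213123 was at 7.74 on that array, against 8.22 to 8.25 on the other Bgn_KO arrays. Mmp28 was at 5.01 there, against 5.83 to 5.99 on the other Bgn_KO arrays. Without that array the log2 difference of Mmp28 was 0.63 (limma adjusted p = 0.212) and that of the Adam23 probe 0.24 (limma adjusted p = 0.509).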

How the results depend on the processing

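Under 18 alternatives the 38 member probes gave 670 further values, of which 619 kept direction and side of the threshold, 50 changed direction and 1 newly passed. The filters, the variance model and the replicate block leave each probe's log2 difference as it was, so their values could not change direction. The count of member probes past 0.05 was 0 except with array weights, where it was 1 (Mmp16, 0.73). Over all tested probes 72 passed, 47 with a detection p under 0.01 on all arrays, 116 with array weights, 43 without both replicates 4 and 43 to 76 without 1 array, the fewest without WT replicate 4 (43) and WT replicate 3 (44). With the replicate block 26 passed. The titles do not state that the replicate numbers pair animals, so the block was used only as an alternative, and it changed no member call. Same-numbered arrays deviated together with r of -0.01, -0.19, 0.02 and 0.10, which cannot tell whether animals were paired. With no filter on dim probes, counts of members cover 100 probes. Median scaling moved the median of all tested probes to -0.052, against 0.011.

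With median scaling the direction changed for Adam15 ILMN_3139103 (-0.076), Adam22 ILMN_2759398 (0.0012) and Adam23 ILMN_1230599 (-0.055) and ILMN_1242144 (-0.031). Adam22 ILMN_2759398 and Adamts16 were at 0.010 and 0.0051 without background correction, 0.0097 and 0.0048 with an offset of 50, and 0.012 and 0.0071 in the authors' processed values. Array weights gave -0.033 for Adam15 ILMN_3139103, -0.094 for Adamts15 and 0.043 for Adamts16. Without both replicates 4, Adam22 ILMN_3057562 was at -0.061 and Adamts15 at -0.046. The cause was not tested.

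Among probes whose direction changed on leaving out 1 array, the ranges were -0.018 to 0.28 for Mmp11, -0.21 to 0.046 for Mmp9, -0.36 to 0.056 for Timp1 ILMN_2769918, -0.12 to 0.028 for Timp3 ILMN_2741096, -0.11 to 0.16 and -0.059 to 0.053 for Adam15 ILMN_2718144 and ILMN_3139103, -0.022 to 0.15 for Adam17, -0.14 to 0.033 for Adam21, -0.13 to 0.077 for Adam11 ILMN_2812954, -0.24 to 0.14 and -0.021 to 0.13 for Adam22 ILMN_2759398 and ILMN_3057562, -0.035 to 0.076 and -0.10 to 0.089 for Adam23 ILMN_1230599 and ILMN_1242144, -0.19 to 0.11 for Adamts13, -0.094 to 0.19 for Adamts15, -0.17 to 0.24 for Adamts16 and -0.26 to 0.022 for Adamts18. The other probes kept their direction on leaving out 1 array, and those whose size depended most on single arrays had ranges of 0.095 to 0.35 for Mmp19, 0.015 to 0.30 for Mmp1a, -0.25 to -0.11 for Mmp2, 0.29 to 0.63 for Mmp28, 0.17 to 0.35 for Mmp14, -0.35 to -0.15 for Mmp23, -0.66 to -0.24 for Timp1 ILMN_3103896, -0.16 to -0.034 for Timp2, 0.021 to 0.20 for Adam19, 0.13 to 0.30 for Adam11 ILMN_1255996, 0.067 to 0.24 for Adam23 ILMN_1213123, 0.017 to 0.26 for Adam32, -0.51 to -0.13 for Adamts19 and -0.44 to -0.19 for Adamts5.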

Other observations

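In the GRCm38.p6 annotation 3 TIMP genes lie within the span of genes for synapsins, proteins that tether synaptic vesicles: Timp1 within Syn1, Timp3 within Syn3 and Timp4 within Syn2. Syn2 had log2 signals of 12.31, 12.08, 12.43 and 12.50 on the Bgn_KO arrays, against 12.17, 12.00, 12.15 and 11.72 on the WT arrays, with overlapping groups. Its log2 difference was 0.32 (SE 0.13, limma adjusted p = 0.467), while that of Timp4 was -0.30, and neither passed. The 2 Syn1 probes differed by 0.08 and 0.19 (limma adjusted p = 0.882 and 0.552), and the Syn3 probe did not meet the detection rule. These genes were chosen for their position after the TIMP values were known.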
